A study of Ovis aries with 16 samples.

Results

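The Iroquois homeobox genes IRX1, IRX2, IRX3, IRX4, IRX5 and IRX6 were followed through visceral and subcutaneous fat of adult female sheep. The members were taken by gene name, and all 6 were present among the 28524 genes of the count table. The family was taken up after its levels in both depots had been seen, so the depot values below are a description and carry no test. The effects of prenatal bisphenol A on the members, and the depot values of other genes, were tested.

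RNA was sequenced from 16 fat samples in 4 groups of 4 libraries: visceral fat of BPA ewes, visceral fat of control ewes, subcutaneous fat of BPA ewes and subcutaneous fat of control ewes. BPA ewes were born to mothers injected under the skin each day with bisphenol A (BPA, a compound used to make plastics with weak oestrogen-like activity) dissolved in corn oil. The dose was 0.5 mg/kg/day and was given between gestation days 30 and 90, where term is about 147 days. Mothers of control ewes were injected with corn oil alone. All ewes were about 21 months old, had been kept on a maintenance diet meant to prevent obesity, and were sampled in the follicular phase, 24 hours after the second of a pair of prostaglandin F2α injections given 11 days apart. The visceral depot was mesenteric fat lying around the rumen's ventral sac, and the subcutaneous depot was sternal fat. No group was untreated in the sense of an uninjected mother, and the labels name no breed. Libraries are called here by the number that opens their title. There were 11 such numbers, of which 5 occurred in both depots (2 BPA and 3 control).

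Iroquois proteins are transcription factors of the TALE homeobox class, whose homeodomain carries an insertion of 3 amino acids. In vertebrate embryos they set up regional identity in the neural tube, heart, retina and limb. In mammals the genes sit in 2 clusters, IRX1, IRX2 and IRX4 in one and IRX3, IRX5 and IRX6 in the other. In human and mouse, IRX3 and IRX5 are also known from fat, since obesity-associated variants in introns of the neighbouring gene FTO lie in elements that contact the IRX3 and IRX5 promoters, and both factors have been linked to restraint of the thermogenic programme in fat cell precursors.

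Library totals were 6768945 to 14305764 counts in visceral fat and 3046126 to 6223460 counts in subcutaneous fat, so low genes were read with more depth in visceral fat. Levels are given in CPM, a gene's count scaled to one fixed total per library, after TMM scaling, a correction for differences in library composition. All 12 adipocyte markers examined, among them ADIPOQ and PLIN1, had counts in every group, with summed levels of 19050 to 36050 CPM in visceral fat and 13880 to 29510 CPM in subcutaneous fat. The labels do not say whether each library came from a separate animal, so p-values measure the spread between these libraries. Values in bulk tissue do not separate the number of cells that use a gene from the RNA per cell.

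IRX1 and IRX2, both known from patterning of the embryo, were read almost solely in subcutaneous fat. IRX1 had 0, 0.456, 1.05 and 0 CPM in visceral fat of BPA ewes 910, 918, 977 and 984, and 0, 0.473, 0 and 0 CPM in visceral fat of control ewes 902, 908, 924 and 928. In subcutaneous fat it had 59.9, 76.5, 52.5 and 69.99 CPM in BPA ewes 918, 922, 941 and 977, and 31.1, 68.5, 57.8 and 54.2 CPM in control ewes 902, 924, 928 and 931. Visceral signal for IRX1 rested on 16 counts in 3 of 8 libraries, and every subcutaneous library stood far above every visceral one. Among the subcutaneous libraries control 902 was lowest, and both treatments overlapped.

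IRX2 had no count in any of the 8 visceral libraries. A count of 0 in 4 libraries allows up to 3 counts, which corresponds to 0.0795 CPM over the visceral libraries of BPA ewes and 0.0656 CPM over those of control ewes. Such limits cover counting error only. In subcutaneous fat IRX2 had 21.2, 44.7, 23.5 and 28.0 CPM in BPA ewes 918, 922, 941 and 977, and 11.4, 34.9, 37.8 and 23.5 CPM in control ewes 902, 924, 928 and 931. The lowest subcutaneous value again belonged to control 902, and the highest to BPA 922, which also had the highest IRX1.

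IRX3 was the member with clear levels in both depots. It had 8.59, 8.09, 16.5 and 6.25 CPM in visceral fat of BPA ewes 910, 918, 977 and 984, and 2.49, 4.45, 10.3 and 10.4 CPM in visceral fat of control ewes 902, 908, 924 and 928. In subcutaneous fat IRX3 had 35.8, 24.4, 25.8 and 39.5 CPM in BPA ewes 918, 922, 941 and 977, and 31.1, 28.4, 39.2 and 19.4 CPM in control ewes 902, 924, 928 and 931. The highest visceral library, BPA 977, was below the lowest subcutaneous library, control 931. Within visceral fat the spread was wide, with an SD of 46.0% of the mean in BPA ewes and 58.6% in control ewes, against 23.7% in subcutaneous fat of BPA ewes and 27.6% in that of control ewes.

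IRX5, the neighbour of IRX3 and its partner in limb and heart development in mouse, was low in visceral fat but present in every library. It had 2.45, 0.228, 1.497 and 0.452 CPM in visceral fat of BPA ewes 910, 918, 977 and 984, and 0.623, 0.851, 0.948 and 2.03 CPM in visceral fat of control ewes 902, 908, 924 and 928. In subcutaneous fat IRX5 had 10.9, 15.8, 10.3 and 18.2 CPM in BPA ewes 918, 922, 941 and 977, and 21.8, 13.8, 16.5 and 12.5 CPM in control ewes 902, 924, 928 and 931. Control 902, lowest for IRX1 and IRX2, was highest for IRX5. Visceral values of IRX5 rested on 2 to 25 counts per library and subcutaneous values on 35 to 140.

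IRX4, which in vertebrates marks the ventricles of the heart, had no count in any of the 16 libraries. Over all libraries together, that allows up to 3 counts, or 0.0237 CPM of the unscaled totals. IRX6, known from the retina in mouse, was at the edge of detection, with 10 counts in all and no more than 3 in a library. Of these, 2 counts fell in 1 of 8 visceral libraries (control 928) and 8 counts in 5 of 8 subcutaneous libraries. Neither gene passed the filter on low counts in any comparison.

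**Figure D1:**
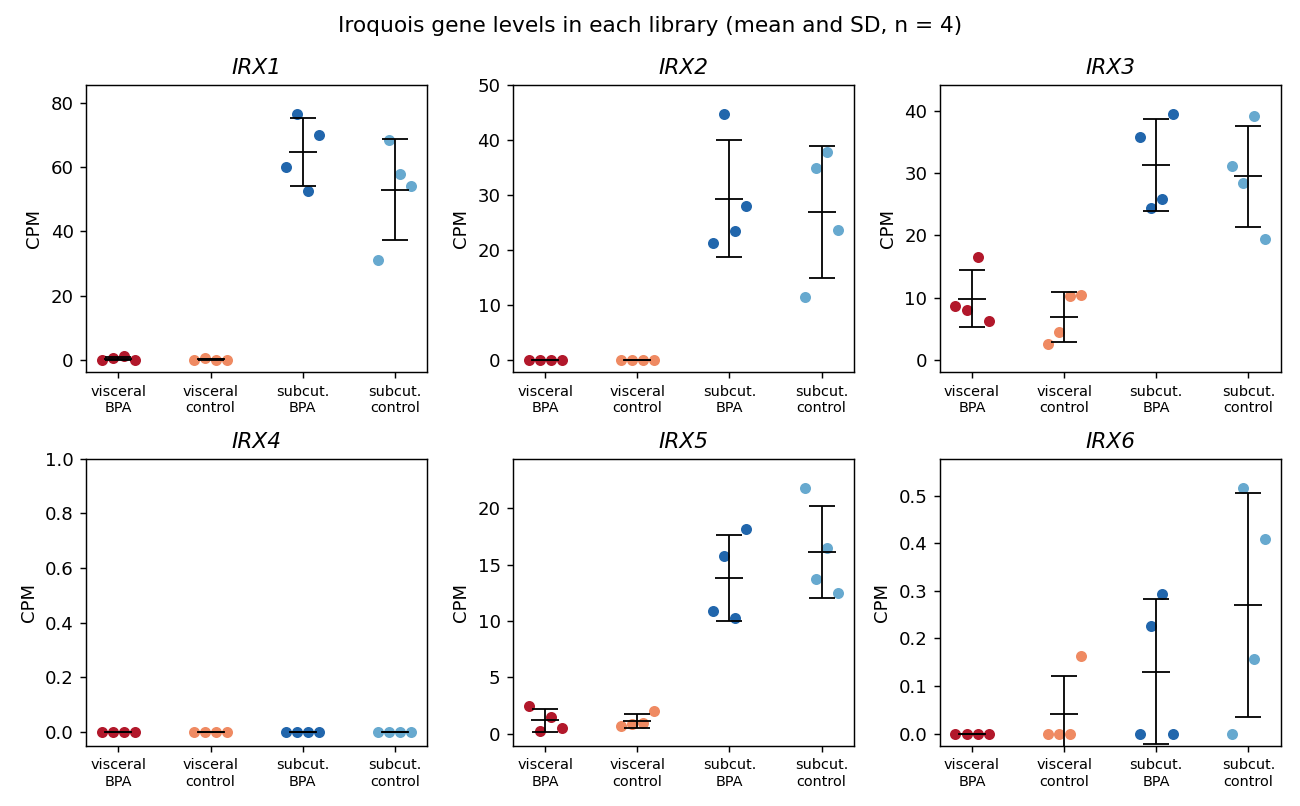
Level of each Iroquois gene in CPM after TMM scaling (vertical axis, a separate scale for each gene) in the 16 libraries, grouped by depot and treatment. Points are libraries, the long bar is the group mean and the whiskers are 1 SD (n = 4). IRX1, IRX2, IRX3 and IRX5 have no visceral library as high as any subcutaneous one, IRX4 is at 0 throughout and IRX6 stays below 0.6 CPM.

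Group means put the depot difference on one scale. IRX1 averaged 0.376 ± 0.497 CPM in visceral and 64.7 ± 10.6 CPM in subcutaneous fat of BPA ewes, and 0.118 ± 0.237 against 52.9 ± 15.7 CPM in control ewes (SD, n = 4 in each group). The fitted log2 difference, visceral minus subcutaneous, was -7.65 ± 0.61 in BPA ewes and -8.73 ± 0.59 in control ewes (SE). The size of the difference rests on the few visceral counts: it was -8.77 in BPA ewes without visceral library 977. Without visceral library 908, the only visceral control with counts, the fit in control ewes gave -11.79. The visceral controls left were all at 0, so that value gives no measured size. With the title number as a fixed replicate block, only numbers found in both depots inform the difference. The IRX1 difference was then -6.46 in BPA ewes, from 918 and 977, the only visceral BPA libraries with IRX1 counts. In control ewes it was -11.83, again no measured size, since visceral controls 902, 924 and 928 were at 0. In voom with the block it was -8.61 in BPA ewes. IRX2 was at least 369-fold lower in visceral fat of BPA ewes and at least 409.7-fold lower in that of control ewes, computed against 3 counts over the 4 visceral libraries. IRX2 averaged 29.3 ± 10.6 and 26.9 ± 12.0 CPM in subcutaneous fat of BPA and control ewes (SD, n = 4 each).

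IRX3 and IRX5, of the other cluster, had smaller depot differences. IRX3 averaged 9.85 ± 4.53 CPM in visceral and 31.4 ± 7.44 CPM in subcutaneous fat of BPA ewes, 3.19-fold lower in visceral fat, and 6.90 ± 4.04 against 29.5 ± 8.14 CPM in control ewes, 4.28-fold lower (SD, n = 4 each). Its fitted log2 difference was -1.69 ± 0.31 in BPA ewes and -2.09 ± 0.40 in control ewes (SE). IRX5 averaged 1.16 ± 1.03 against 13.8 ± 3.83 CPM in BPA ewes and 1.11 ± 0.628 against 16.1 ± 4.13 CPM in control ewes, 11.9-fold and 14.5-fold lower in visceral fat (SD, n = 4 each). Its fitted log2 difference was -3.60 ± 0.58 in BPA ewes and -3.82 ± 0.37 in control ewes (SE). Without visceral library 910, the highest of its group for IRX5, the value in BPA ewes was -4.33, and with the fixed replicate block -4.24.

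In both treatments 4 of 6 members were lower in every visceral than in every subcutaneous library. Over all genes tested, that pattern held for 9.02% in BPA ewes and 9.73% in control ewes, and all 8 visceral libraries lay below all 8 subcutaneous ones for 2.56%. Ordered by the fitted log2 difference from the lowest up, IRX2, IRX1, IRX5 and IRX3 stood at places 1, 4, 40 and 229 of 13782 genes in BPA ewes and at places 1, 3, 37 and 155 of 14456 in control ewes. These ranks belong to the comparison that brought the family into view and support nothing further.

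Levels of different genes were compared per kilobase of transcript length, as CPM per kb. In subcutaneous fat IRX1 led with 32.4 ± 7.67 CPM per kb, followed by IRX2 with 11.8 ± 4.46, IRX3 with 11.7 ± 2.80 and IRX5 with 5.70 ± 1.48 (SD, n = 8). IRX1 exceeded IRX2 and IRX3 in 8 of 8 libraries. IRX2 and IRX3 did not differ beyond their spread, each being the higher one in 4 of 8 libraries. IRX3 exceeded IRX5 in 8 of 8 libraries and IRX2 exceeded IRX5 in 7 of 8, the exception being control 902. Of the genes that passed the filter, 86.6% had a lower mean level per length than IRX1 in subcutaneous fat, 61.5% a lower one than IRX2, 61.3% a lower one than IRX3 and 40.1% a lower one than IRX5.

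The order in visceral fat was another one. IRX3 led there with 3.22 ± 1.65 CPM per kb, ahead of IRX5 with 0.433 ± 0.300 and IRX1 with 0.136 ± 0.212 (SD, n = 8). IRX3 exceeded IRX5 in 8 of 8 visceral libraries, with no overlap of their ranges. IRX5 and IRX1 overlapped, IRX5 being the higher one in 6 of 8. As a share of the family's summed level per length, IRX3 made up 84.3 ± 6.84% in visceral fat, against 19.4 ± 5.23% in subcutaneous fat, while IRX1 made up 3.29 ± 4.70% against 52.1 ± 5.71% (SD, n = 8 each). The shares of IRX5 overlapped between depots, with 12.2 ± 6.90% in visceral and 9.66 ± 4.15% in subcutaneous fat, and IRX2 held 18.7 ± 4.39% in subcutaneous fat.

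**Figure D2:**
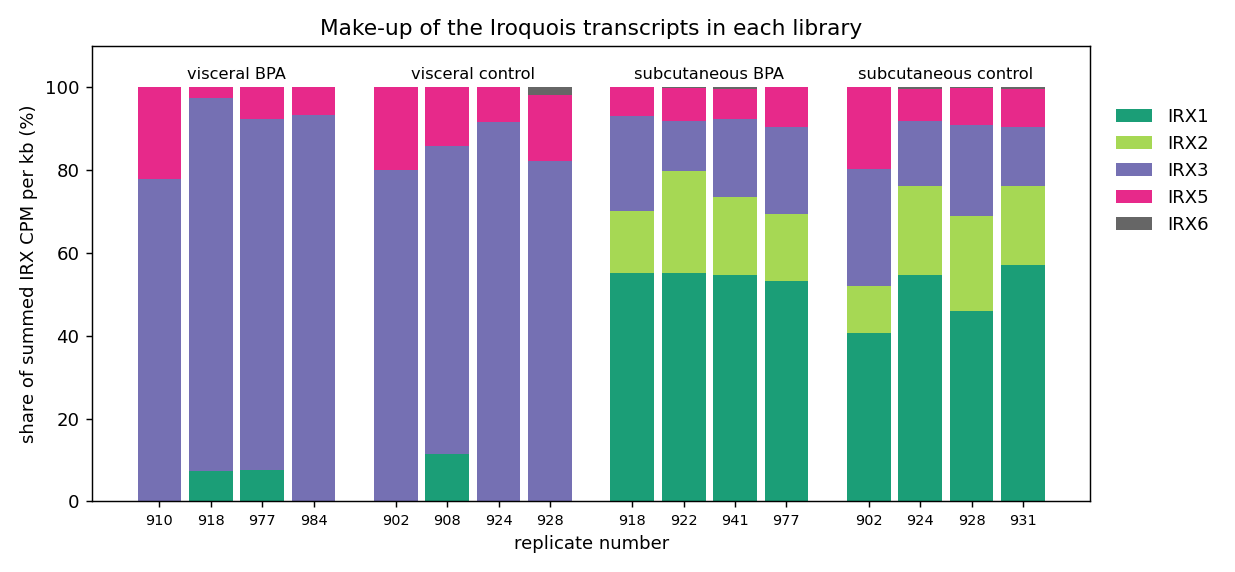
Share of each Iroquois gene in the family's summed level per length (CPM per kb, vertical axis in percent) for each library (horizontal axis, the number that opens its title). IRX3 fills 74.5% to 93.3% of the visceral bars, whereas IRX1 fills 40.6% to 57.2% of the subcutaneous bars; IRX2 appears in subcutaneous bars only.

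The 5 numbers found in both depots gave the same picture pair by pair. IRX3 was 8.09 CPM in visceral and 35.8 CPM in subcutaneous fat of BPA 918, and 16.5 against 39.5 CPM in BPA 977. It was 2.49 against 31.1 CPM in control 902, 10.3 against 28.4 CPM in control 924 and 10.4 against 39.2 CPM in control 928. IRX3 was thus lower in visceral fat in 5 of 5 pairs, by 2.40-fold (BPA 977) to 12.5-fold (control 902). IRX5 was lower in visceral fat in 5 of 5 pairs, by 8.09-fold (control 928) to 47.9-fold (BPA 918), where the visceral library held 2 counts. IRX1 was 0.456 against 59.9 CPM in BPA 918 and 1.05 against 69.99 CPM in BPA 977, and 0 in the visceral library of the 3 control pairs.

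**Figure D3:**
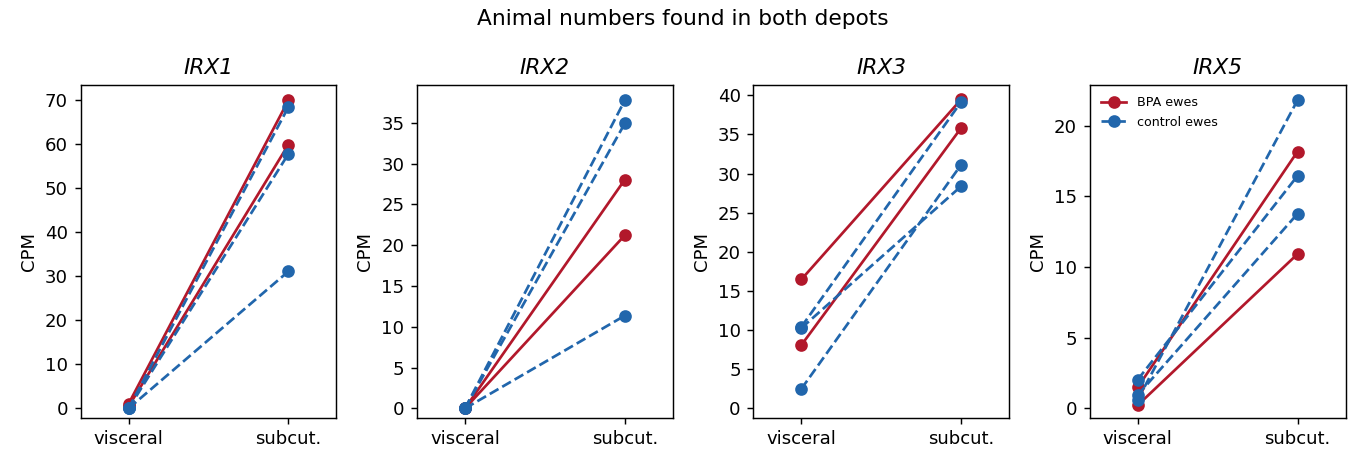
Levels in CPM (vertical axis, a separate scale for each gene) of IRX1, IRX2, IRX3 and IRX5 in visceral and subcutaneous fat (horizontal axis) for the 5 title numbers with a library in each depot, joined by a line (solid for 2 BPA ewes, dashed for 3 control ewes). All 20 lines climb towards subcutaneous fat.

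Relations between members within a depot rest on 8 libraries each. Over the 8 subcutaneous libraries IRX1 and IRX2 had a Pearson r of 0.89 (exact permutation p = 0.0122, Benjamini-Hochberg adjusted p = 0.0854 over 7 relations) and a Spearman rho of 0.71 (exact permutation p = 0.0576, adjusted p = 0.402). Without the 2 libraries farthest from the median of IRX1, r was 0.43, so the relation rests on those libraries. IRX3 and IRX5 had an r of 0.36 (exact permutation p = 0.369, adjusted p = 0.796) and a rho of 0.48 (exact permutation p = 0.243) in subcutaneous fat, with an r of 0.14 without the 2 farthest libraries. In visceral fat their r was 0.43 (exact permutation p = 0.288, adjusted p = 0.796) and their rho 0.62 (exact permutation p = 0.115), with an r of 0.37 without the 2 farthest. The other 4 pairs in subcutaneous fat, which cross the clusters, had r between -0.32 and 0.02, with exact permutation p of 0.455 to 0.996. Without the 2 farthest libraries these r were 0.54 for IRX1 and IRX3, 0.64 for IRX1 and IRX5, 0.37 for IRX2 and IRX3 and 0.70 for IRX2 and IRX5, so these values, too, depend on those libraries. No relation passed after adjustment, and BPA and control libraries were pooled in these values.

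Whether prenatal BPA was followed by other Iroquois levels in the adult ewe was tested within each depot, with edgeR's quasi-likelihood test and Benjamini-Hochberg adjustment over all genes. In subcutaneous fat 4 of 6 members passed the low-count filter and 0 of 4 were called. None had an unadjusted p below 0.05, and DESeq2 and limma voom also called 0. Over all 13535 genes tested there, 96 were called (0.709%), a rate at which 0 of 4 says nothing particular about the family. That count is itself unsteady: it was 32, 34 or 56 without subcutaneous control 902, 924 or 928, 37 or 48 without BPA 922 or 941, 0 without controls 902 and 924 together and 1 in a voom fit with the title number as a replicate block. Summed adipose progenitor markers were 3240 to 5673 CPM in subcutaneous fat of BPA ewes and 5679 to 8061 CPM in that of control ewes, with 1 of 12 markers called lower. Most of both mean sums was COL1A1 and COL3A1, and the part of these markers in the Iroquois values was not tested.

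IRX1 in subcutaneous fat was 64.7 ± 10.6 CPM in BPA ewes and 52.9 ± 15.7 CPM in control ewes (SD, n = 4 each), a log2 difference of 0.29 ± 0.22 (SE, 95% interval -0.20 to 0.79, edgeR adjusted p = 0.594). IRX2 had a log2 difference of 0.13 ± 0.35 (95% interval -0.65 to 0.90, edgeR adjusted p = 0.904). IRX3 had one of 0.09 ± 0.23 (95% interval -0.42 to 0.59, edgeR adjusted p = 0.899) and IRX5 one of -0.22 ± 0.25 (95% interval -0.77 to 0.33, edgeR adjusted p = 0.737). All 4 intervals span 0 and leave out a change by 2-fold or more in either direction, that of IRX2 (0.639-fold to 1.87-fold) being the widest. Leaving out single libraries turned the sign of IRX2 (-0.15 without BPA 922, -0.13 without control 902) and of IRX3 (-0.03 without BPA 977, -0.06 without control 931). IRX6 had 0.130 ± 0.152 CPM in BPA ewes and 0.271 ± 0.235 CPM in control ewes (SD, n = 4 each, two-sided exact permutation p = 0.40, where 4 against 4 libraries allow 0.0286 at the lowest).

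In visceral fat IRX3 and IRX5 passed the filter and 0 of 2 were called, with 0 at an unadjusted p below 0.05 and 0 by DESeq2 or voom. Over all 14774 genes edgeR also called 0 (0.0%), with 1103 at an unadjusted p below 0.05 and 6 called by DESeq2. IRX3 was 9.85 ± 4.53 CPM in BPA ewes and 6.90 ± 4.04 CPM in control ewes (SD, n = 4 each), a log2 difference of 0.51 ± 0.47 (SE, 95% interval -0.52 to 1.53, edgeR adjusted p = 0.759). IRX5 had a log2 difference of 0.03 ± 0.73 (95% interval -1.59 to 1.64, edgeR adjusted p = 0.994). As folds the intervals run from 0.696 to 2.90 for IRX3 and from 0.332 to 3.11 for IRX5, so a rise above 2-fold lies within both and a fall by 2-fold or more within that of IRX5. IRX1, too low for the model in visceral fat, had 0.376 ± 0.497 CPM in BPA ewes and 0.118 ± 0.237 CPM in control ewes (SD, n = 4 each, two-sided exact permutation p = 0.714).

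A difference between the BPA effects of both depots, visceral minus subcutaneous, was tested on all 16 libraries. Of the members, 4 passed the filter and 0 were called, as were 0 of 14793 genes (0.0%). At an unadjusted p below 0.05 there were 0 members and 917 genes, and DESeq2 called 0 members and 11 genes. IRX3 had a difference of 0.40 ± 0.54 on the log2 scale (SE, 95% interval -0.74 to 1.54, edgeR adjusted p = 0.999) and IRX5 one of 0.22 ± 0.70 (95% interval -1.26 to 1.70, edgeR adjusted p = 0.9996). For IRX1 the value of 1.05 ± 1.17 (edgeR adjusted p = 0.999) hung on single visceral libraries. It was -0.07 without BPA 977 and 3.99 without control 908. Without control 908 the visceral controls were all at 0, so 3.99 gives no measured size. For IRX2, at 0 in all visceral libraries, the term holds no information on visceral fat.

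**Figure D4:**
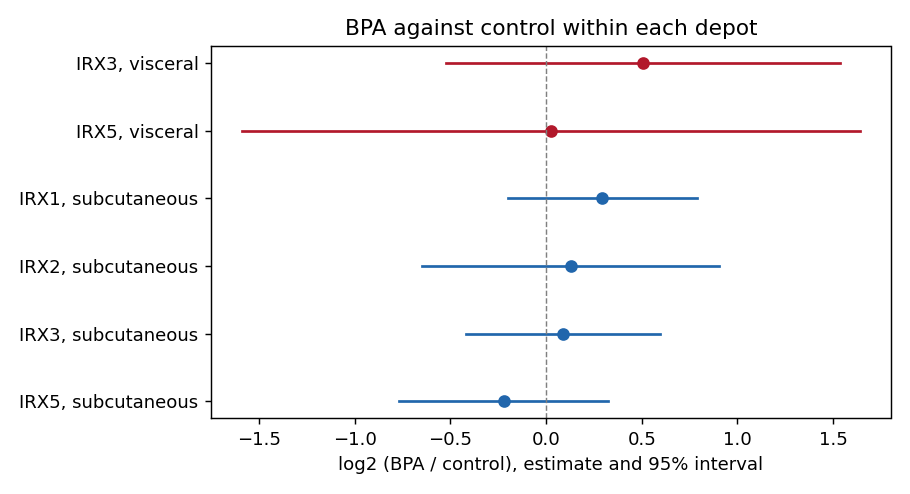
Estimated log2 ratio of BPA to control (points) with its 95% interval (lines) for the 6 tests of Iroquois genes within a depot, visceral above subcutaneous. All 6 intervals cross 0, and those of visceral IRX3 and IRX5 are the widest.

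The count table gives exon coordinates, though it names no genome build, and its 2 sequences with Iroquois genes correspond to sheep chromosomes 16 and 14 by the genes they hold. On chromosome 16 IRX1 spans 75768720 to 75774154 on the minus strand, IRX2 spans 76558685 to 76564158 and IRX4 spans 77296370 to 77300333, both on the plus strand. IRX3 lies on chromosome 14 from 24110411 to 24113780 on the minus strand, IRX5 from 24722968 to 24744670 and IRX6 from 25091721 to 25097132, both on the plus strand. No other gene of the table overlaps any of the 6 spans. Gaps between neighbours are 784.5 kb from IRX1 to IRX2, 732 kb from IRX2 to IRX4, 609 kb from IRX3 to IRX5 and 347 kb from IRX5 to IRX6, with 1, 1, 5 and 1 other genes inside them. IRX1 and IRX2, with few or no visceral counts, share their cluster with IRX4, which had no count in either depot.

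Genes within 1 Mb of either cluster, a window chosen after the data were seen, were read beside the members. Of 61 such neighbours 30 were tested in each treatment. In BPA ewes 1 was higher and 5 were lower in visceral than in subcutaneous fat, and in control ewes 1 was higher and 6 were lower. Of the 5 lower ones, LOC105602651, described below, had visceral counts in BPA 918 only and could not have come out higher. Over all genes 5.13% were called higher and 3.94% lower in BPA ewes, and 7.17% and 6.16% in control ewes. The median log2 difference of the 30 neighbours was -0.16 in BPA ewes and -0.17 in control ewes, against 0.02 and -0.01 over all genes. Of the neighbours listed by name for the IRX3, IRX5 and IRX6 cluster, 8 of 11 were tested, with 2 lower in BPA ewes and 3 in control ewes. On the list for the other cluster 9 of 11 were tested and edgeR called 0 in either treatment. Of these, 1 in BPA ewes and 3 in control ewes had an unadjusted p below 0.05, and DESeq2 called 0. That list reaches past the 1 Mb window, with ADAMTS16, ICE1, MED10 and NSUN2 outside it. Within the window at that cluster, 1 was called higher and 2 lower of 14 tested in BPA ewes. In control ewes 1 was called higher and 1 lower of 13. The called neighbours lay next to IRX1, next to IRX5, beyond IRX4 or beyond IRX6.

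The closest called neighbour of IRX5 was LOC106991591, a long non-coding RNA gene in the reference annotation. It lies 1.85 kb from IRX5 on the other strand, from 24709268 to 24721114 on chromosome 14. LOC106991591 had 2.23, 1.59, 1.65 and 1.28 CPM in visceral fat of BPA ewes 910, 918, 977 and 984, against 10.3, 11.1, 11.4 and 13.2 CPM in subcutaneous fat of BPA ewes 918, 922, 941 and 977. In control ewes it averaged 2.04 ± 0.334 CPM in visceral and 14.01 ± 2.80 CPM in subcutaneous fat (SD, n = 4 each). Its log2 difference was -2.77 ± 0.31 in BPA ewes (SE, edgeR adjusted p = 0.00138) and -2.76 ± 0.25 in control ewes (edgeR adjusted p = 0.000164), and all 8 visceral libraries were below all 8 subcutaneous ones. Near IRX1, at 1.47 kb and also on the other strand, the long non-coding RNA gene LOC105602651 fell in visceral fat of BPA ewes, with 5 counts in all against 71 in subcutaneous fat (log2 difference -4.71 ± 0.91, edgeR adjusted p = 0.0139, and 0.0501 without subcutaneous BPA 922). All 5 visceral counts came from BPA 918. Without it the visceral BPA libraries were at 0, so the fitted -7.73 gives no measured size. LOC105602651 passed the low-count filter through its subcutaneous counts, so a call could only be for a lower visceral level. In control ewes it was too low to be tested.

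Beyond IRX6 lay MMP2 and SLC6A2. MMP2, the gene of gelatinase A, a collagen-degrading enzyme made by stromal cells, starts 139 kb from IRX6. It was 188 ± 52.3 CPM in visceral and 987 ± 525 CPM in subcutaneous fat of BPA ewes, and 242 ± 64.8 against 993 ± 546 CPM in control ewes (SD, n = 4 each). The log2 difference was -2.39 ± 0.38 in BPA ewes and -2.04 ± 0.37 in control ewes (SE, edgeR adjusted p = 0.0069 and 0.00655). SLC6A2, the noradrenaline transporter of sympathetic nerves, 272 kb away, was 0.282 ± 0.284 against 5.17 ± 2.07 CPM in BPA ewes and 0.158 ± 0.140 against 4.17 ± 2.13 CPM in control ewes (SD, n = 4 each), with log2 differences of -3.95 ± 0.65 and -4.63 ± 0.71 (SE, edgeR adjusted p = 0.00843 and 0.00279). LPCAT2, a lysophospholipid acyltransferase gene between them, fell in visceral fat of control ewes (-2.61 ± 0.64, edgeR adjusted p = 0.0225) and had 0.24 ± 0.51 in BPA ewes (edgeR adjusted p = 0.805). The difference between the treatments, tested as the difference of BPA effects between depots, was 2.86 ± 0.87 (edgeR adjusted p = 0.649) and was not called. That call was lost on leaving out any visceral control or subcutaneous control 924, and LPCAT2 had -0.66 (edgeR adjusted p = 0.383) without subcutaneous controls 902 and 924.

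On the far side of IRX3, at 154 kb, lies FTO, which encodes an RNA demethylase. It was 48.7 ± 8.41 CPM in visceral and 54.5 ± 5.47 CPM in subcutaneous fat of BPA ewes, and 47.6 ± 2.24 against 49.6 ± 7.15 CPM in control ewes (SD, n = 4 each). Its log2 difference was -0.17 ± 0.17 in BPA ewes (edgeR adjusted p = 0.569) and -0.05 ± 0.13 in control ewes (edgeR adjusted p = 0.832). RPGRIP1L, a gene of the primary cilium beyond FTO, had -0.63 ± 0.21 in BPA ewes (edgeR adjusted p = 0.0882) and -0.17 ± 0.17 in control ewes (edgeR adjusted p = 0.529). At the other cluster, 651 kb beyond IRX4, TPPP, a gene of a tubulin-binding protein, was higher in visceral fat (1.96 ± 0.45 with edgeR adjusted p = 0.026 in BPA ewes, 1.17 ± 0.19 with 0.00399 in control ewes). The call in BPA ewes was lost without subcutaneous BPA 918, 922 or 941 (highest adjusted p = 0.0816). That in control ewes was lost in a fit of all 16 libraries (adjusted p = 0.0545). Also beyond IRX4, TRIP13 in BPA ewes and EXOC3 in control ewes were called lower by less than 2-fold. So was BBS2 in control ewes, 507 kb beyond IRX6 on chromosome 14. Each of these calls was lost in at least 5 of 8 omissions of a library, that of TRIP13 also with the fixed replicate block (adjusted p = 0.444). For BPA against control edgeR called 0 of 30 neighbours in each depot, with 4 at an unadjusted p below 0.05 in subcutaneous and 3 in visceral fat, and DESeq2 called 1 and 0.

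**Figure D5:**
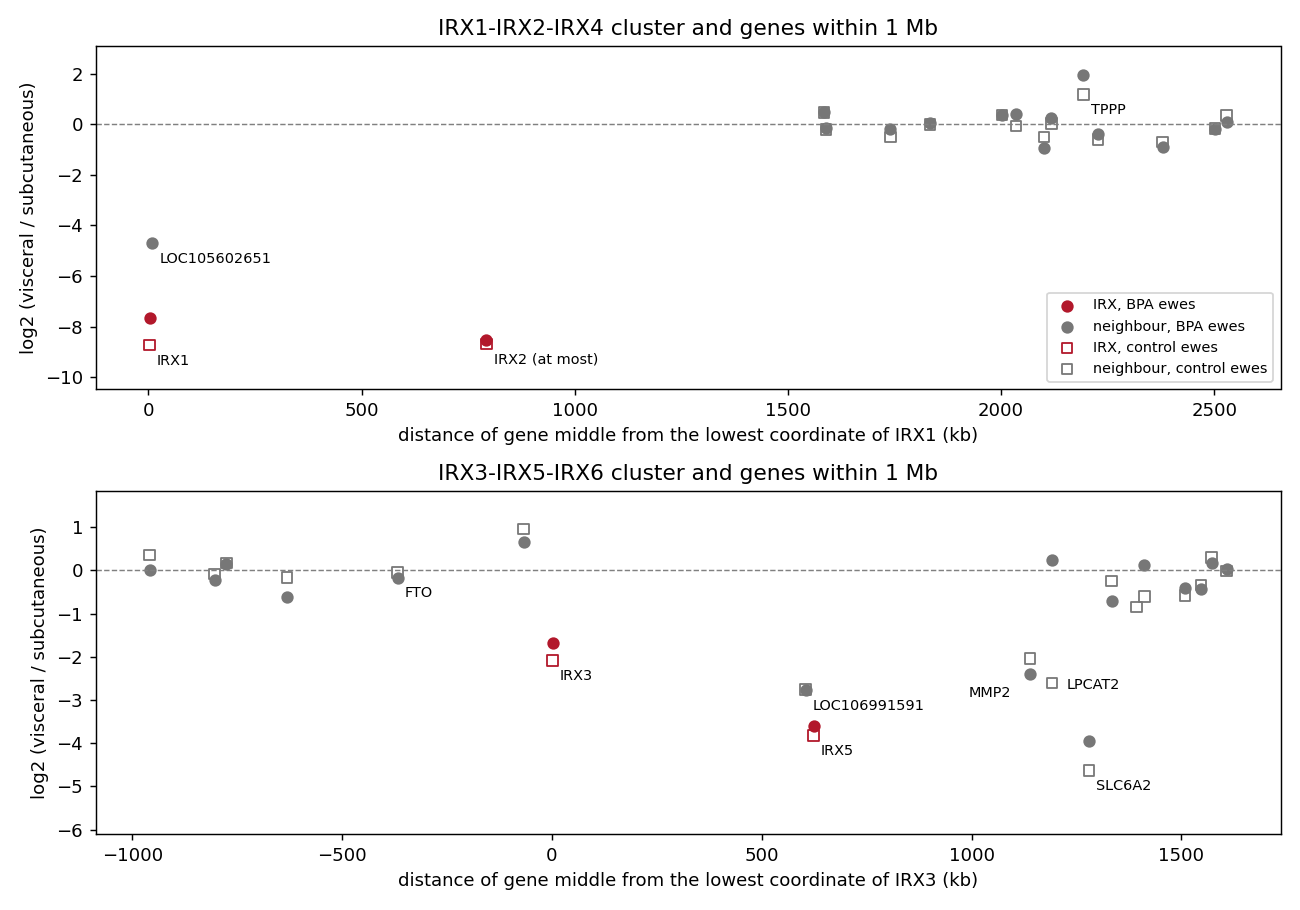
Fitted log2 ratio of visceral to subcutaneous level (vertical axis) for Iroquois genes (red) and tested neighbours within 1 Mb (grey), placed by the distance of the gene's middle from the lowest coordinate of IRX1 or IRX3 (horizontal axis, kb). Filled circles are BPA ewes and open squares control ewes; IRX2 is drawn at its bound, 3 counts over the 4 visceral libraries. FTO lies near 0, whereas LOC106991591, IRX5, MMP2 and SLC6A2 lie below -2 in both treatments.

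The wider TALE class, whose PBX and MEIS proteins bind DNA as partners of other homeodomain factors, gave no call for a lower level in visceral fat. Of 12 relatives 11 were tested in each treatment, and 2 were higher and 0 lower in visceral fat in BPA ewes, as in control ewes. Over all genes 5.13% were called higher and 3.94% lower in BPA ewes, and 7.17% and 6.16% in control ewes. At these rates 0 lower calls among 11 genes say nothing particular about the relatives. MEIS2 was 37.3 ± 7.14 CPM in visceral and 18.02 ± 2.56 CPM in subcutaneous fat of BPA ewes (log2 difference 1.04 ± 0.20, edgeR adjusted p = 0.013) and 37.6 ± 0.966 against 20.2 ± 4.75 CPM in control ewes (0.91 ± 0.17, edgeR adjusted p = 0.00709; SD, n = 4 each). MEIS2 kept its call when any library was left out, but with the title number as a fixed block its adjusted p in BPA ewes was 0.0705. In BPA ewes that fit rests on the 2 numbers found in both depots. MEIS1 rose in control ewes (0.54 ± 0.14, edgeR adjusted p = 0.0283) and PKNOX1 in BPA ewes (0.84 ± 0.20, edgeR adjusted p = 0.0312), each call being lost in 6 of 8 omissions and that of PKNOX1 also with the fixed block (adjusted p = 0.211). MKX, an Iroquois-like homeobox gene of tendon, averaged 0.790 ± 0.555 CPM in visceral and 1.02 ± 0.581 CPM in subcutaneous fat (SD, n = 8 each). The median log2 difference of the tested relatives was 0.37 in BPA ewes and -0.17 in control ewes, against 0.02 and -0.01 over all genes.

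Genes tied to IRX3 and IRX5 in work on the human FTO locus were read from a list of 15 thermogenic and regulatory genes. In control ewes 11 were tested, of which 1 was higher and 2 were lower in visceral fat, where 7.17% and 6.16% of all genes were called higher and lower. PRDM16, a regulator of brown and beige fat identity, was the higher one (9.16 ± 2.79 against 4.36 ± 0.681 CPM, log2 difference 1.08 ± 0.30, edgeR adjusted p = 0.0351). ARID5B, a repressor reported to bind the human element that controls IRX3 and IRX5, was 91.8 ± 15.5 CPM in visceral and 139.7 ± 21.4 CPM in subcutaneous fat (-0.60 ± 0.16, edgeR adjusted p = 0.0317; SD, n = 4 each), and TBX1, a T-box gene used as a beige fat marker, had -2.20 ± 0.57 (edgeR adjusted p = 0.0283). Leaving out a library ended the call of PRDM16 and ARID5B in 6 of 8 cases and that of TBX1 in 5 of 8, with adjusted p up to 0.0939, and without subcutaneous controls 902 and 924 ARID5B had 0.143, PRDM16 0.165 and TBX1 0.0673. In BPA ewes edgeR called 0 of 10, with 2 at an unadjusted p below 0.05 and 1 called by DESeq2. PPARGC1A, the mitochondrial coactivator, had 0.62 ± 0.60 in BPA ewes and 0.06 ± 0.34 in control ewes (edgeR adjusted p = 0.543 and 0.931). UCP1, the uncoupling protein of thermogenic fat, had 3 counts over all 16 libraries, so no relation of IRX3 or IRX5 to it could be read.

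Hedgehog signalling, which acts upstream of Iroquois genes in the neural tube and limb, was read from 14 genes. GLI2, a transcription factor of the pathway, fell in visceral fat of control ewes (17.1 ± 2.92 CPM in visceral and 33.5 ± 10.0 CPM in subcutaneous fat, log2 difference -0.96 ± 0.22, edgeR adjusted p = 0.0191; SD, n = 4 each), with the call lost in 3 of 8 omissions and an adjusted p of 0.0564 with the title number as a fixed block. In BPA ewes GLI2 had -0.87 ± 0.26 (edgeR adjusted p = 0.0591). In control ewes the other 11 tested genes of the list were not called, where 7.17% of all genes were called higher and 6.16% lower. BPA against control gave 0 calls by edgeR in the TALE, thermogenic and hedgehog lists in both depots, with 6 genes at an unadjusted p below 0.05 in subcutaneous and 1 in visceral fat, and DESeq2 called 1 and 0.

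Genes whose profile over the 16 libraries came closest to a member were found by the root mean square difference of log2 CPM (prior count 2, each gene centred on its own mean). Places count only genes with a symbol, whereas medians are over all 14792 genes. IRX1 and IRX2 were each other's nearest gene with a symbol, at 0.70, against a median of 3.65 from IRX1 and 3.39 from IRX2 to all genes. HOXA9, a posterior HOX gene, was also near both, at 0.91 from IRX1 and 1.02 from IRX2. It averaged 0.445 CPM in visceral and 32.8 CPM in subcutaneous fat (n = 8 each). For IRX3 the nearest were TWIST1, a mesenchymal transcription factor, at 0.55, ATP10A, a phospholipid flippase, at 0.62 and FAM180B at 0.62, against a median of 1.21. TWIST1 averaged 9.40 CPM in visceral and 29.2 CPM in subcutaneous fat (n = 8 each). For IRX5 they were MMP27, a matrix metalloproteinase, at 0.71, PTGFR, the prostaglandin F receptor, at 0.75 and HOXC9, another posterior HOX gene, at 0.79, against a median of 1.95. IRX3 took place 17 for IRX5 at 1.04, but IRX5 took only place 2271 for IRX3, where the median was 1.21. The cluster mates IRX3 and IRX5 were thus less alike by this measure than IRX1 and IRX2. Both depots enter the measure, so it takes in the depot difference, and no shared function or control is implied.

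Markers of other cell types also differed between the depots, and their part in the Iroquois values was not tested. Summed levels of 12 adipose progenitor markers were 1938 to 5465 CPM in visceral and 3240 to 5673 CPM in subcutaneous fat of BPA ewes, and 2703 to 3705 against 5679 to 8061 CPM in control ewes, with 2 of 12 called lower in visceral fat in BPA ewes (3.94% over all genes) and 4 of 12 in control ewes (6.16% over all genes). Most of the mean sums over both treatments was collagen RNA, from COL3A1 (1256 CPM in visceral and 2005 CPM in subcutaneous fat) and COL1A1 (768 against 1294 CPM, n = 8 each). LUM alone had a higher mean in visceral fat over both treatments (182 against 115 CPM). Within a treatment other markers did too, among them COL1A1 (1036 against 822 CPM) and PDGFRA (133.6 against 120.1 CPM) in BPA ewes. In control ewes DPP4 (13.72 against 12.12 CPM) and MFAP5 (58.64 against 55.64 CPM) did so. The fitted difference was above 0 for 5 of 12 markers in BPA ewes and for 3 of 12 in control ewes. Per 1000 CPM of the 12 markers together, IRX3 was 2.80 ± 0.547 in visceral and 8.04 ± 2.86 in subcutaneous fat of BPA ewes, and 2.22 ± 1.29 against 4.77 ± 1.51 in control ewes (SD, n = 4 each). On the same scale IRX5 was 0.352 ± 0.341 against 3.61 ± 1.55 in BPA ewes and 0.360 ± 0.210 against 2.55 ± 0.294 in control ewes, and IRX1 was 0.0760 ± 0.0936 against 16.6 ± 4.73 in BPA ewes and 0.0437 ± 0.0875 against 8.88 ± 3.52 in control ewes (SD, n = 4 each). These ratios are mostly to collagen RNA, use the same depot values of the members as above and carry no test.

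The 11 mesothelial markers, of the lining that covers visceral fat, summed to 65.6 to 421 CPM in visceral and 47.2 to 125 CPM in subcutaneous fat, where LRRN4 was at 0. WT1, among them, averaged 22.9 CPM in visceral and 0.0818 CPM in subcutaneous fat (n = 8 each). PKHD1L1 averaged 63.98 CPM in visceral and 76.8 CPM in subcutaneous fat and made up most of the subcutaneous sum, which averaged 82.2 CPM. Skeletal muscle markers (9 of 10 in the table) summed to 131 to 246 CPM in visceral and 295 to 1329 CPM in subcutaneous fat, with CKM and MYH2 at 0 in all visceral libraries and CKM and MYLPF at 0 in subcutaneous controls. Most of both mean sums was NEB (154 CPM in visceral and 379 CPM in subcutaneous fat), and TTN reached 617 CPM in a subcutaneous BPA library. In control ewes ACTA1 (0.558 against 0.0511 CPM) and TTN (7.15 against 5.86 CPM) had higher means in visceral fat, whereas NEB, TNNT3, TNNI2, MYH1 and MYH2 had lower ones. Epithelial and skin markers (9 of 10 in the table) summed to 35.3 to 515 CPM in visceral and 9.87 to 35.7 CPM in subcutaneous fat, and KRT5 was at 0 in both depots. Most of the visceral sum was DSP, a desmosome gene, with 153 CPM in visceral and 8.19 CPM in subcutaneous fat, whereas KRT10 (4.70 against 6.01 CPM), EPCAM (0.0747 against 0.253 CPM), ESRP1 (0.154 against 0.423 CPM), GRHL2 (0.277 against 0.669 CPM) and TP63 (0.157 against 0.636 CPM) had lower means in visceral than in subcutaneous fat. The 8 endothelial markers summed to 2376 to 3133 CPM in visceral and 1657 to 2892 CPM in subcutaneous fat, and the 7 smooth muscle markers to 237 to 3503 against 325 to 825 CPM. Macrophage markers (8 of 10 in the table) summed to 529 to 1178 CPM in visceral and 323 to 832 CPM in subcutaneous fat, the 10 lymphocyte markers to 72.2 to 208 against 44.9 to 242 CPM and the 8 nerve and Schwann cell markers to 292 to 756 against 211 to 469 CPM.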

How the data were processed

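RNA from 16 ewe fat samples was sequenced after ribosomal RNA depletion with a low-input kit, per the labels' protocols. The authors deposited 1 table of read counts covering 28524 genes. The table is titled as normalized, but all values are whole numbers with differing totals, so they were treated as raw counts. Reads were aligned with STAR 2.6.0c and counted with featureCounts of Subread 1.6.1, after quality checks with FastQC 0.11.5 and MultiQC 0.9, per the submitters' processing notes. No source used here names the genome build, the annotation or the use of strand, so reads of overlapping opposite-strand genes may not have been told apart. Chromosome names, gene types and distances come from the coordinates in the table and from matching gene symbols to RefSeq's sheep annotation, whose own coordinates were not used.

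Members and lists were chosen with earlier results of these data known. Samples were grouped by depot and treatment from the labels. Genes were filtered with filterByExpr (minimum count 10, minimum total count 15), scaled by TMM and tested with edgeR 4.0.16 (R 4.3.3; glmQLFit and glmQLFTest), separately for each pair of groups, with Benjamini-Hochberg adjustment over all genes tested and a threshold of 0.05. The difference between depots in the BPA effect was fitted over all 16 libraries without a block. Levels in CPM use TMM over all 16 libraries. Library totals ran from 3046126 to 14305764 counts, and limits from a count of 0 use 3 counts. Members too low for the model were tested with an exact permutation test in scipy 1.17.1. Alternatives were DESeq2 1.42.0, its size factors, other filters, limma 3.58.1 voom or edgeR with the title number as a replicate block, a fit of all libraries and the omission of each library. Leaving out subcutaneous controls 902 and 924 together, and the 1 Mb window for neighbours, were chosen after the data were seen.

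Same-numbered libraries of both depots deviated together from their group means in control ewes, with correlations across 14793 genes of 0.29, 0.40 and 0.33 for 902, 924 and 928. In BPA ewes the correlations were 0.17 for 918 and 0.03 for 977. Correlations between differently numbered libraries were not computed, so these values do not settle whether the numbers pair the samples. The main depot tests used no replicate block. A depot difference fitted with the fixed replicate block rests on the numbers found in both depots, 2 in BPA ewes and 3 in control ewes. The text names all members, every called gene of each pathway list (at most 6 a list), 10 genes named in advance such as FTO and MEIS2, and the 3 genes with a symbol nearest to each member. TPPP, TRIP13, EXOC3, BBS2, LOC105602651 and LOC106991591 fall outside that rule and were named after their values were seen. A few genes that this rule takes in are not reported here. The edgeR steps were tested on simulated data.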

Additional observations from a re-analysis of the deposited data

Results flagged for a closer look

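Of 80 groups of 4 libraries examined, 9 held a library far from the other 3 by Dixon's criterion. Chance meets it in about 1 of 20 groups of continuous values. A group with 3 libraries at 0 and 1 above 0 meets it whatever that value is, as for IRX1 and IRX6 below. The 9 flags can therefore not be set against that rate. Among the members, IRX1 was 0.473 CPM in visceral control 908, where the other 3 were at 0, which made its share of the family's summed level per length 11.3% there. IRX6 was 0.163 CPM in visceral control 928, from 2 counts, with the other 3 at 0. IRX5 made up 19.7% of the family's summed level in subcutaneous control 902, against 7.62% to 9.11% in the other 3.

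The other flags concern cell markers. Visceral BPA 977 had the lowest sum of adipocyte markers of its group (19050 CPM, others 29140 to 30670 CPM) and the highest sum of epithelial and skin markers (515 CPM, others 35.3 to 114 CPM). Smooth muscle markers summed to 3503 CPM in visceral BPA 918, against 563 to 1026 CPM in the others. Adipose progenitor markers summed to 8061 CPM in subcutaneous control 902, against 5679 to 5758 CPM in the others, and skeletal muscle markers to 497.5 CPM in subcutaneous control 924, against 295 to 321 CPM. The part of these libraries in the Iroquois values was not tested beyond the omissions given.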

How the results depend on the processing

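No alternative called a member in any of the 3 BPA tests. All 120 recomputed group means of members stayed within 1 SD. Leaving out 1 of 4 libraries cannot move a mean that far, so for the omissions this outcome was fixed and shows no stability. Of 156 recomputed BPA values of members 16 changed sign, none of them called. For BPA in subcutaneous fat, IRX2 ran from -0.15 to 0.34 over single omissions and was -0.058 without controls 902 and 924, and IRX3 ran from -0.06 to 0.25. In visceral fat IRX5 ran from -0.69 to 0.50 over omissions, with -0.005 in the fit of all libraries and -0.39 in voom with the replicate block. For the difference between depots, IRX1 ran from -0.074 to 3.99 over omissions (5.21 with the fixed replicate block, adjusted p = 0.0842, over a range of 0.0842 to 1.0), and IRX5 from -0.52 to 0.69, with -0.18 in voom with the block and -0.36 with the fixed replicate block. For IRX1 the values 3.99 and 5.21 rest on visceral control libraries at 0 and give no measured size.

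Counts of genes called moved more. For BPA in subcutaneous fat the count of 96 became 54 with the 50-count filter, 464 with DESeq2, 46 in the fit of all libraries, 1 in voom with the replicate block, 173 with no filter, 0 without controls 902 and 924, and 32 to 128 over omissions. Of these calls 85.4% were higher in BPA ewes, against 54.1% with DESeq2. In visceral fat DESeq2 called 6, and for the difference between depots DESeq2 called 11 and the fixed replicate block 19, in place of 0. Between depots in BPA ewes the count of 1250 became 2197 with DESeq2, 2408 in the fit of all libraries, 2300 in voom with the block (1047 higher and 1253 lower, against 707 and 543), 892 with the fixed replicate block, and 369 to 2206 over omissions (369 without subcutaneous 922, 2206 without visceral 977). In control ewes 1928 became 2772 with DESeq2, 2631 with the fixed replicate block, 2348 in voom with the block, 1138 without subcutaneous 902 and 924 and 1043 to 1755 over omissions. The cause of these moves was not tested, apart from the fewer samples or genes that an omission or filter leaves. Of 337 recomputed depot values of other named genes, 81 missed the threshold and 0 changed sign; of 92 for members, 5 moved and 0 changed sign. Depth limits IRX1, IRX2, IRX5 and IRX6 in visceral fat and IRX6 in subcutaneous fat.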
